A study of Mus musculus with 10 samples.

Results

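The complement genes described here were *C1qa*, *C1qb*, *C1qc*, *C4b*, *C3*, *Cfb*, *Cfp*, *C3ar1* and *C5ar1*, which were chosen by name, and all 9 were found among the 55487 genes counted. Their levels were read in 10 libraries of RNA from mammary gland cells of 10-wk-old female mice in diestrus. Mammary epithelial cells (MECs), kept after cells of other lineages were removed, gave 2 WT and 2 *Cebpb*ΔM libraries, and macrophages, selected with antibody to the surface protein F4/80, gave 2 WT and 4 *Cebpb*ΔM libraries. Both genotypes carried floxed *Cebpb*, and only *Cebpb*ΔM mice carried Cre under the *Csf1r* promoter, which is active in myeloid cells, so the deletion was directed at macrophages also where MECs were sequenced. Nothing in the labels says that the libraries came from separate animals, so *P*-values measure the spread between libraries.

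Complement is a cascade of plasma and tissue proteins that marks cells and debris for removal. C1q, built from the A, B and C chains, binds such targets and starts the classical pathway, which cleaves C4 and then C3, and factor B and properdin build and hold the C3 convertase of the alternative pathway. The small fragments C3a and C5a act on cells through the receptors C3aR1 and C5aR1, and tissue macrophages are a well-known source of C1q.

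The upstream sequences of 5 of these genes are given first, because the deleted gene encodes the transcription factor C/EBPβ and these genes include 4 that did not overlap between macrophage genotypes and *C3*, which did. They are RefSeq sequences on GRCm38.p6, minus strand, written 5′ to 3′ and ending at the transcription start or, for *C1qc* and *C3ar1*, at the outer end of the exon in the count table's annotation. A RefSeq entry was matched for 6 of the 9 genes, and that of *C5ar1*, which also overlapped between macrophage genotypes, was not searched and is not shown. Capitals mark matches on either strand to TTGCNNAA, a C/EBP-type core, or to GAGGAA, a core bound by PU.1 and other ETS factors, and these motifs do not overlap each other in the windows shown.
*C1qb* (chr4:136886201-136886450): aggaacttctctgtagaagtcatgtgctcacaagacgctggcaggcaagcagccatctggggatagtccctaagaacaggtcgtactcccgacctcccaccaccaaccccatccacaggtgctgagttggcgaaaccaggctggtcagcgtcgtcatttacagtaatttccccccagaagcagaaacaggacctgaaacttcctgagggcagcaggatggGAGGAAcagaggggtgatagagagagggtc
*C1qc* (chr4:136893066-136893164): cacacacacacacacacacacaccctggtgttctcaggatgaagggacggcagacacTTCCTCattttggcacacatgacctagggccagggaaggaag
*Cfp* (chrX:20931556-20931805): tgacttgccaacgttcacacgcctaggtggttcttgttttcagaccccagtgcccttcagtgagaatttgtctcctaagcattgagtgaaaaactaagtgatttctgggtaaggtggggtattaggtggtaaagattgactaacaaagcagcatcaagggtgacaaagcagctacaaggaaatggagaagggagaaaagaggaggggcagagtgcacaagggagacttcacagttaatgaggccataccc
*C3ar1* (chr6:122856162-122856407): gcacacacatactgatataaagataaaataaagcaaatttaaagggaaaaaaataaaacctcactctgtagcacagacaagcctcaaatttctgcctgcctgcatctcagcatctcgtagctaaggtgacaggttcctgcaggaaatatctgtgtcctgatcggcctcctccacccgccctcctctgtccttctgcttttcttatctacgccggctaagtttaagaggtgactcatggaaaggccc
*C3* (chr17:57228137-57228386): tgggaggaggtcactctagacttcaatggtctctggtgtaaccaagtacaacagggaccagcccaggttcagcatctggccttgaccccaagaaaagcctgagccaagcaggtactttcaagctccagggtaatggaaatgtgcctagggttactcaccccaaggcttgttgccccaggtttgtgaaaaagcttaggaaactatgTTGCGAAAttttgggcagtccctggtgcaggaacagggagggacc

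*C3* held 1 match to TTGCNNAA, and the other windows shown held 0. Of 32851 RefSeq promoters, 9.56% held this motif in a window of 250 bases. *C1qb* held 1 match to GAGGAA, as 23.3% of promoters did in a window of that length, and *C1qc* held 1 on the opposite strand in 99 bases, as 9.91% did. These are matches of letters only, and no binding was measured.

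The total count ranged from 16935000 to 20174722 in the macrophage libraries and from 25310926 to 27008166 in the MEC libraries. The libraries called *Cebpb*ΔM here are labeled C/EBPb knockdown, and those called WT are labeled wild type. That the deletion was directed at macrophages comes from the paper. *Cebpb* itself did not check the labels. Its counts were 16, 13, 5 and 4 in the *Cebpb*ΔM macrophage libraries and 13 and 15 in WT, and the ranges overlapped. All genotypes below therefore follow the labels. The macrophage libraries also held epithelial RNA. The summed level of 12 mammary epithelial markers was between 5877 and 8051 CPM, counts scaled to a common library total, in *Cebpb*ΔM and between 10459 and 10771 CPM in WT, against 32575 to 39702 CPM in MECs. The summed level of 12 macrophage markers was between 8656 and 13757 CPM in *Cebpb*ΔM macrophages and between 7914 and 8107 CPM in WT macrophages, with none at 0. *Lyz2* alone made up 4340 to 7830 CPM of this in *Cebpb*ΔM and 4105 to 4831 CPM in WT, which overlapped. In bulk samples like these, fewer cells of a type and less RNA per cell cannot be told apart. The CPM are scaled within each cell type by the trimmed mean of M-values (TMM).

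The C1q chains were among the most abundant transcripts of the macrophage libraries. Per kilobase of exon, the level of *C1qa* was 1011 ± 284 CPM (SD, n = 2) in WT macrophages, where it ranked 30 among all genes, while *Cebpb*ΔM macrophages had 1746 ± 215 CPM (SD, n = 4). *C1qb* followed, with 1351 ± 195 CPM per kilobase in *Cebpb*ΔM and 838 ± 267 CPM per kilobase in WT. In WT these neighbours in the order lay within their spread of each other. Properdin (*Cfp*) had 344 ± 110 CPM per kilobase in WT macrophages and *C1qc* 247 ± 88.8 CPM per kilobase, which also lay within their spread. The next were *C5ar1*, *C4b*, *C3* and *C3ar1*, at 105 ± 65.8, 102 ± 39.3, 61.7 ± 1.75 and 35.3 ± 2.96 CPM per kilobase (SD, n = 2). *Cfb* was lowest, at 1.88 ± 0.432 CPM per kilobase. Its counts come from a small part of the gene, because 79.5% of its exonic bases are shared on the same strand with another annotated gene, *Gm20547*, which had 0 counts in every library. *C4b* has a near-identical copy, *C4a*, and reads can be lost or split between them, so its level is uncertain as well.

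**Figure D1:**
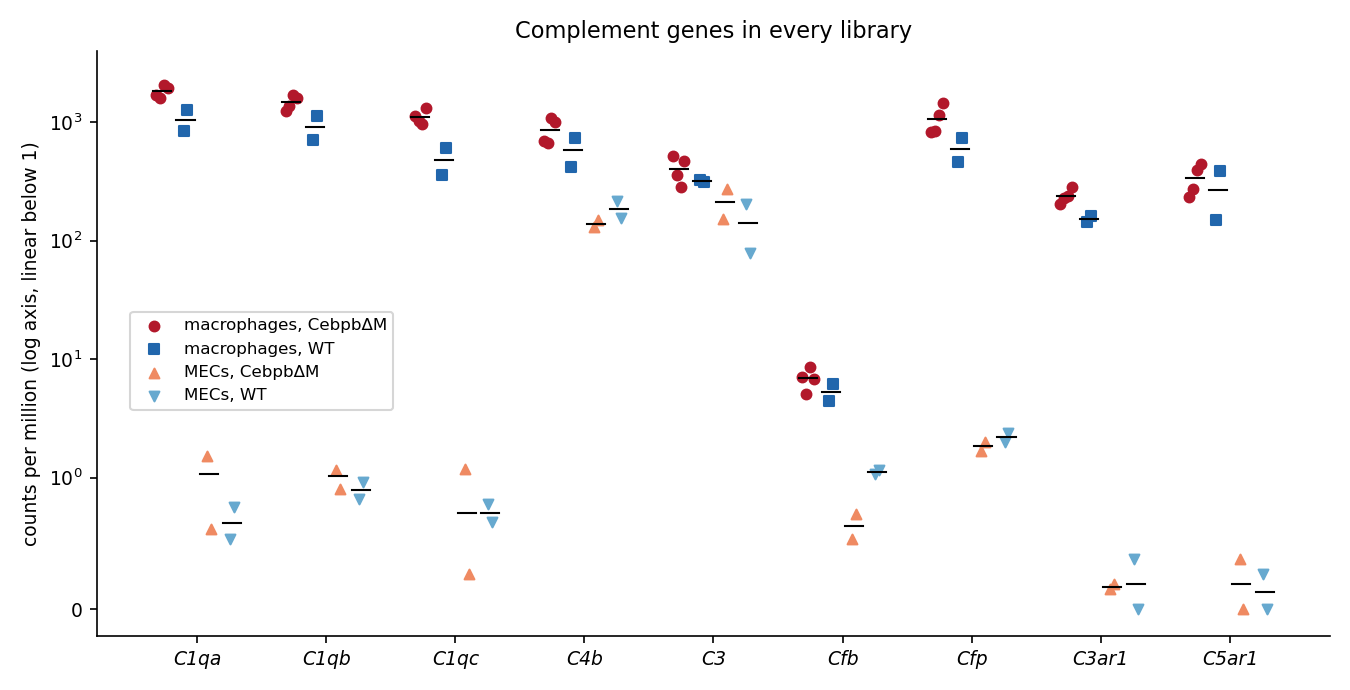
Levels of the 9 complement genes in each of the 10 libraries, in TMM-scaled CPM on an axis that is logarithmic above 1 and linear below, with points for libraries and black lines for group means. *C1qa* lies between 843 and 2063 CPM in macrophages and between 0.532 and 1.54 CPM in MECs, whereas *C3* and *C4b* are above 78 CPM in all libraries.

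The comparison of macrophage genotypes asked whether these genes differ when macrophages are made to lose *Cebpb*. The 3 C1q chains were higher in every *Cebpb*ΔM library than in either WT library, by 1.61-fold to 2.32-fold, but none passed the threshold of the edgeR quasi-likelihood (QL) test after adjustment. *C1qa* (ENSMUSG00000036887, chromosome 4 from 136895917 to 136898803, GRCm38), which encodes the A chain, had 1678, 1583, 2063 and 1939 CPM in *Cebpb*ΔM 4, 5, 6 and 7, and 843 and 1260.2 CPM in WT 4 and 5. WT 4 was the lowest library, and the genotypes did not overlap. The log2 fold change was 0.79 (SE 0.21, QL test, Benjamini–Hochberg adjusted *P* = 0.461). *C1qb* (ENSMUSG00000036905, chromosome 4 from 136880129 to 136886187), for the B chain, had 1230.3, 1356, 1681 and 1611 CPM in *Cebpb*ΔM 4 to 7, and 706 and 1117 CPM in WT 4 and 5. The gap between the genotypes was narrow here, between *Cebpb*ΔM 4 and WT 5. The chain had a log2 fold change of 0.69 (SE 0.23, QL adjusted *P* = 0.52).

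*C1qc* (ENSMUSG00000036896, chromosome 4 from 136889804 to 136893065), for the C chain, had 1133, 1031, 958 and 1311 CPM in *Cebpb*ΔM 4 to 7, and 357 and 599 CPM in WT 4 and 5. Every *Cebpb*ΔM library was well above both WT libraries. The log2 fold change of 1.21 (SE 0.24, QL adjusted *P* = 0.452) was the largest of the 9 genes. The call for *C1qc* depended on the test, since the likelihood ratio test of edgeR gave an adjusted *P* of 0.0062 and DESeq2 0.000893. DESeq2 also called *C1qa* (adjusted *P* = 0.0343). Without WT 4 the log2 fold changes of the A, B and C chains were 0.53, 0.40 and 0.89.

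The other early components gave smaller differences. *C4b* (ENSMUSG00000073418, chromosome 17 from 34728380 to 34743882) had 693, 669.7, 1079.9 and 1011 CPM in *Cebpb*ΔM 4 to 7, and 422 and 738 CPM in WT 4 and 5. WT 5 was above *Cebpb*ΔM 4 and 5, so the genotypes overlapped. The log2 fold change was 0.57 (SE 0.29, QL adjusted *P* = 0.63), and it was 0.23 without WT 4 and 1.03 without WT 5. *C3* (ENSMUSG00000024164, chromosome 17 from 57203970 to 57228136), on which the pathways converge, had 515, 354, 282 and 469.9 CPM in *Cebpb*ΔM 4 to 7, and 324 and 311 CPM in WT 4 and 5. The WT libraries were close together and inside the range of *Cebpb*ΔM, and the log2 fold change was 0.35 (SE 0.25, QL adjusted *P* = 0.746), or 0.22 without *Cebpb*ΔM 4.

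In the alternative pathway, *Cfp* (ENSMUSG00000001128, chromosome X from 20925454 to 20931555), which encodes properdin, had 822, 845, 1149.6 and 1440.4 CPM in *Cebpb*ΔM 4 to 7, and 462 and 732 CPM in WT 4 and 5. The genotypes did not overlap, and the log2 fold change was 0.83 (SE 0.29, QL adjusted *P* = 0.521), or 0.54 without WT 4. *Cfb* (ENSMUSG00000090231, chromosome 17 from 34856374 to 34862518), which encodes factor B, had 7.07, 5.11, 8.54 and 6.74 CPM in *Cebpb*ΔM 4 to 7, and 4.45 and 6.17 CPM in WT 4 and 5, with overlap. These rest on 85 to 154 counts per library, and the log2 fold change was 0.37 (SE 0.34, QL adjusted *P* = 0.826), or 0.15 without WT 4 and 0.62 without WT 5.

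Of the receptors, *C3ar1* (ENSMUSG00000040552, chromosome 6 from 122847138 to 122856161) had 202, 229, 239.8 and 281 CPM in *Cebpb*ΔM 4 to 7, and 143 and 161 CPM in WT 4 and 5. Both groups were tight and did not overlap, and the log2 fold change was 0.65 (SE 0.18, QL adjusted *P* = 0.48). *C5ar1* (ENSMUSG00000049130, chromosome 7 from 16246743 to 16259540) had 235, 273, 395 and 443 CPM in *Cebpb*ΔM 4 to 7, and 149.98 and 389 CPM in WT 4 and 5. The WT libraries differed more from each other than the group means did, and the log2 fold change was 0.32 (SE 0.4, QL adjusted *P* = 0.883). Without WT 4 it was −0.21.

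Over the 9 genes in macrophages, 5 were higher in *Cebpb*ΔM without overlap between the genotypes, namely the C1q chains, *Cfp* and *C3ar1*. Of all 17772 genes tested, 9.67% were higher without overlap and 9.08% lower. By log2 fold change all 9 were higher, as were 50.4% of all genes. The median log2 fold change was 0.65 for the 9 genes and 0.00 for all genes tested. At the threshold, the QL test called 0 of the 9 genes and 0 of all genes tested (0%), while 5 of the 9 and 8.63% of all genes had an unadjusted *P* under 0.05. The likelihood ratio test called 1 of the 9 (0.777% of all genes) and DESeq2 2 of the 9 (1.13%).

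The macrophage markers differed in the same direction as these complement genes. All 12 markers, which include *Adgre1* (F4/80) and *Csf1r*, were higher in *Cebpb*ΔM by log2 fold change, with a median of 0.60 and with 8 of them not overlapping between the genotypes, and the QL test called 0. *Adgre1*, for example, had 253, 325, 375 and 355 CPM in *Cebpb*ΔM 4 to 7, and 183 and 215 CPM in WT 4 and 5. Other lists moved as well. The 10 markers of resident macrophages were all higher by log2 fold change, with a median of 0.64, and 3 of them did not overlap. The summed level of 8 dendritic cell markers was 307 to 615 CPM in *Cebpb*ΔM and 187 to 281 CPM in WT. Most of that was *Cd209a*, at 209 to 470 CPM in *Cebpb*ΔM and 126 to 199 CPM in WT. Of these 8, 6 had higher and 2 lower fold changes, and the 2 that did not overlap, *Cd209a* and *Siglech*, were higher. Of 8 fibroblast markers 1 had a higher and 7 lower fold changes, with a median of −0.31. Of 6 monocyte markers 2 had higher and 4 lower, with a median of −0.18. Of 12 epithelial markers 5 had higher and 7 lower fold changes, with a median of −0.15, and the 3 that did not overlap were lower. All 5 milk protein genes tested had higher fold changes, and 1 of them did not overlap. The summed level of the 6 milk protein genes listed was 792, 130, 111 and 63.5 CPM in *Cebpb*ΔM 4 to 7, and 125 and 82.8 CPM in WT 4 and 5. These sums overlapped, and *Cebpb*ΔM 4 was far above the other libraries. The QL test called 0 genes of these lists, and their part in the values of the complement genes was not tested. Scaling each library to the macrophage markers moved the median log2 fold change of all genes tested to −0.58, with 12.6% of them higher in *Cebpb*ΔM against 50.4% without it. On this scale the log2 fold change of *C1qc* was 0.67 (QL adjusted *P* = 0.0975), that of *C1qa* 0.22 and that of *C1qb* 0.12. *C4b* then had 0.01, *C3ar1* 0.05 and *Cfp* 0.25, and *C3*, *Cfb* and *C5ar1* were lower in *Cebpb*ΔM, at −0.22, −0.19 and −0.23.

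Set against the mean log2 level of the markers in the same library, *C1qc* was the 1 gene of the 9 that did not overlap between the genotypes. On this measure 1.59% of all genes tested were higher in *Cebpb*ΔM without overlap and 39.6% were lower. It stood 2.08, 1.67, 1.45 and 1.86 log2 units above the markers in *Cebpb*ΔM 4 to 7, and 0.90 and 1.30 in WT 4 and 5. *C1qa* stood 2.28 to 2.65 units above them in *Cebpb*ΔM and 2.14 and 2.37 in WT, so its groups overlapped.

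**Figure D2:**
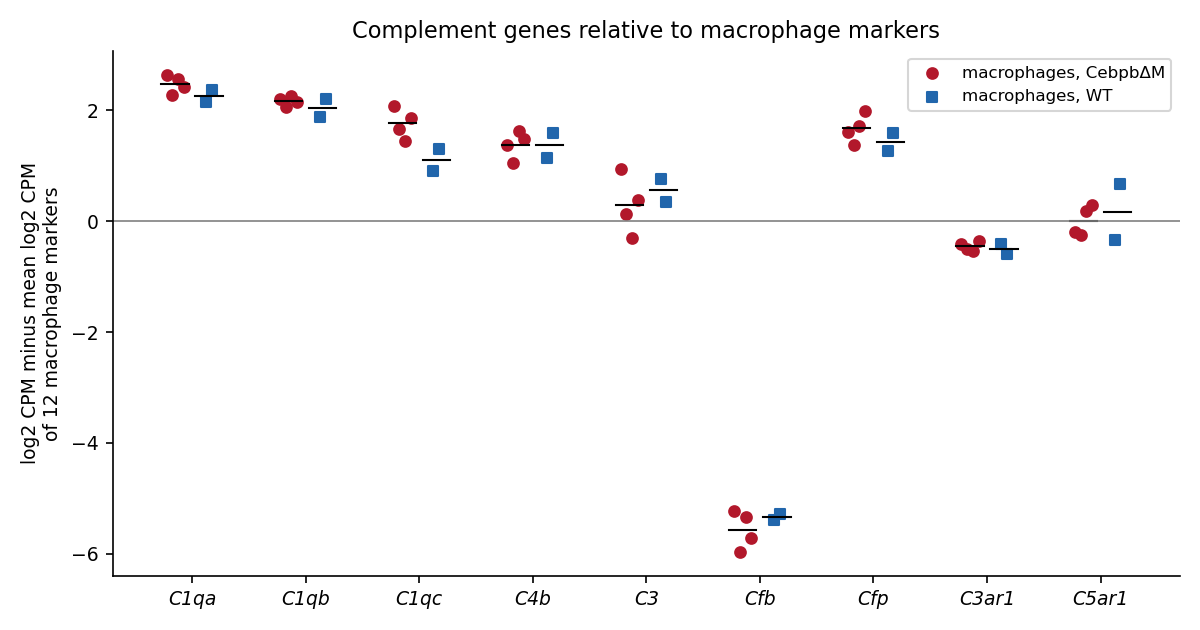
Log2 CPM of each complement gene minus the mean log2 CPM of 12 macrophage markers in the same macrophage library, with points for libraries and black lines for group means. *C1qc* lies between 1.45 and 2.08 in *Cebpb*ΔM and at 0.90 and 1.30 in WT, and the groups of the other genes overlap.

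Because the chains assemble into one molecule, their ratios were also compared within libraries, so that library size drops out. The ratio of *C1qc* to *C1qb*, per kilobase, was 0.519, 0.428, 0.321 and 0.458 in *Cebpb*ΔM 4 to 7, and 0.285 and 0.302 in WT 4 and 5, without overlap. *Cebpb*ΔM 6 was close to the WT libraries. The ratio of *C1qc* to *C1qa* was 0.364, 0.351, 0.25 and 0.364 against 0.228 and 0.256, with *Cebpb*ΔM 6 inside the WT range. The ratio of *C1qb* to *C1qa* was between 0.701 and 0.819 in *Cebpb*ΔM and 0.801 and 0.847 in WT. How often ratios of other genes separate the genotypes was not computed, so the ratios are given as a description.

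**Figure D3:**
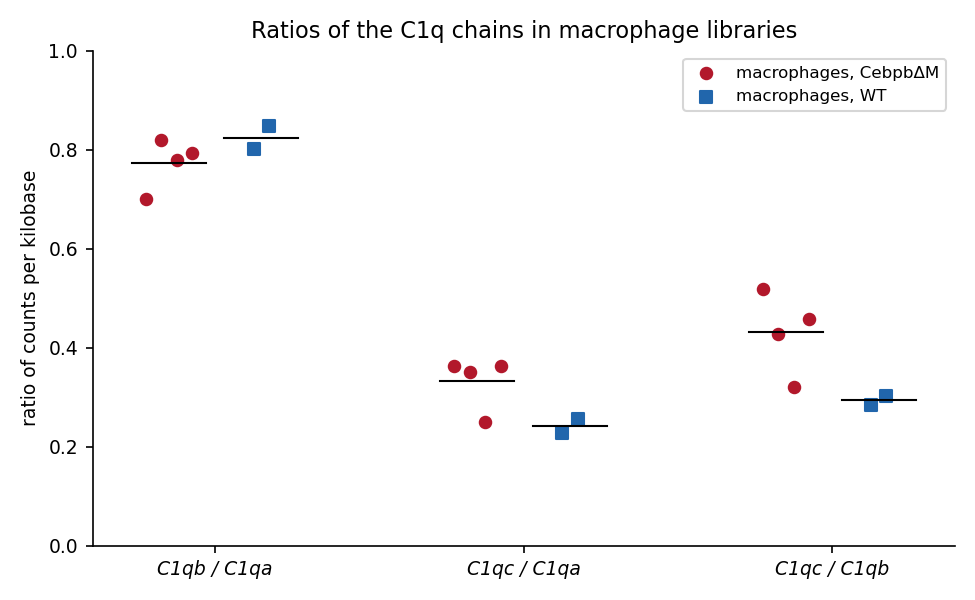
Ratios between the C1q chains in the 6 macrophage libraries, from counts per kilobase of exon, with points for libraries and black lines for group means. The ratio of *C1qc* to *C1qb* is between 0.321 and 0.519 in *Cebpb*ΔM and at most 0.302 in WT.

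The genes whose levels followed the mean of the C1q chains most closely over the 6 macrophage libraries were *Rap1b*, *Tlr7*, *Gpr34*, *Aldh1a2* and *Ms4a7*, with Pearson's r between 0.9895 and 0.9985 among 10437 genes of at least 10 CPM. These libraries share the genotypes and the difference in macrophage markers, so r is given as a description. *Cfp* had an r of 0.937 and ranked 135, *C3ar1* 0.936, *C4b* 0.88, *C5ar1* 0.734 and *C3* 0.388. *Tlr7*, a sensor of RNA in endosomes, had 47.1, 43, 50, and 57.2 CPM in *Cebpb*ΔM 4 to 7, and 11 and 27.8 CPM in WT 4 and 5.

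In MECs the question was whether the epithelium differs when macrophages lack *Cebpb*. The C1q chains had 7 to 40 counts per library, at most 1.54 CPM, and were not tested because they did not pass the filter of 1 CPM in 2 libraries. In WT 1 and 3, *C3ar1* had 10 and 0 counts and *C5ar1* 7 and 0, and in *Cebpb*ΔM 1 and 3 they had 4 and 5, and 10 and 0. A count of 0 allows for up to 3 counts, which covers counting error only. The summed macrophage markers were between 235 and 409 CPM in MECs, of which *Cd14* alone made up 178 to 347 CPM, and the other 11 summed to between 42.1 and 61.5 CPM. For *Adgre1* both *Cebpb*ΔM libraries held 0 counts, whereas the WT libraries held 13 and 2. The part of macrophage RNA in these few counts was not tested.

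Of the 9 genes, *C3* and *C4b* were the ones above 78 CPM in MECs. The MEC libraries also held fibroblast RNA. The summed level of 8 fibroblast markers was between 5013 and 6187 CPM in MECs and between 3455 and 7986 CPM in macrophages. Its part in the levels of *C3* and *C4b* was not tested. *C3* had 152 and 272 CPM in *Cebpb*ΔM 1 and 3, and 204 and 78.6 CPM in WT 1 and 3. The ranges of the genotypes crossed. Its log2 fold change was 0.58 (SE 0.39, QL adjusted *P* = 1). It passed the threshold only when WT 1 was left out (log2 fold change 1.43, adjusted *P* = 0.00867). The WT libraries had 215 and 155 CPM of *C4b*, and the *Cebpb*ΔM libraries 130.2 and 148 CPM, a log2 fold change of −0.41 (SE 0.23, QL adjusted *P* = 1), which was −0.16 without WT 1. *Cfp* had 2.01 and 2.37 CPM in the WT libraries, against 1.69 and 2.01 CPM in the *Cebpb*ΔM libraries. Its log2 fold change was −0.24, or −0.10 without WT 3 and −0.38 without *Cebpb*ΔM 3. *Cfb* had −0.82 from 14 to 30 counts. For *Cfp* the nearest libraries of the genotypes were almost equal. *C4b*, *Cfp* and *Cfb* were lower in *Cebpb*ΔM without overlap, or 3 of the 4 genes tested, where 13.3% of all 15698 genes were. *Cfb*, however, passed the filter only through WT, at 1.06 and 1.16 CPM against 0.54 and 0.72 CPM in *Cebpb*ΔM. That fixed its direction and its lack of overlap, so nothing is drawn from them. Of all genes, 15.4% were higher without overlap. By log2 fold change 1 of the 4 was higher, as were 48.6% of all genes. The QL test called 0 of these 4 genes and 8 of all genes (0.051%), and none of the 4 had an unadjusted *P* under 0.05, which 5.42% of all genes had. The likelihood ratio test and DESeq2 also called 0 of the 4 (1.14% and 1.03% of all genes).

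**Figure D4:**
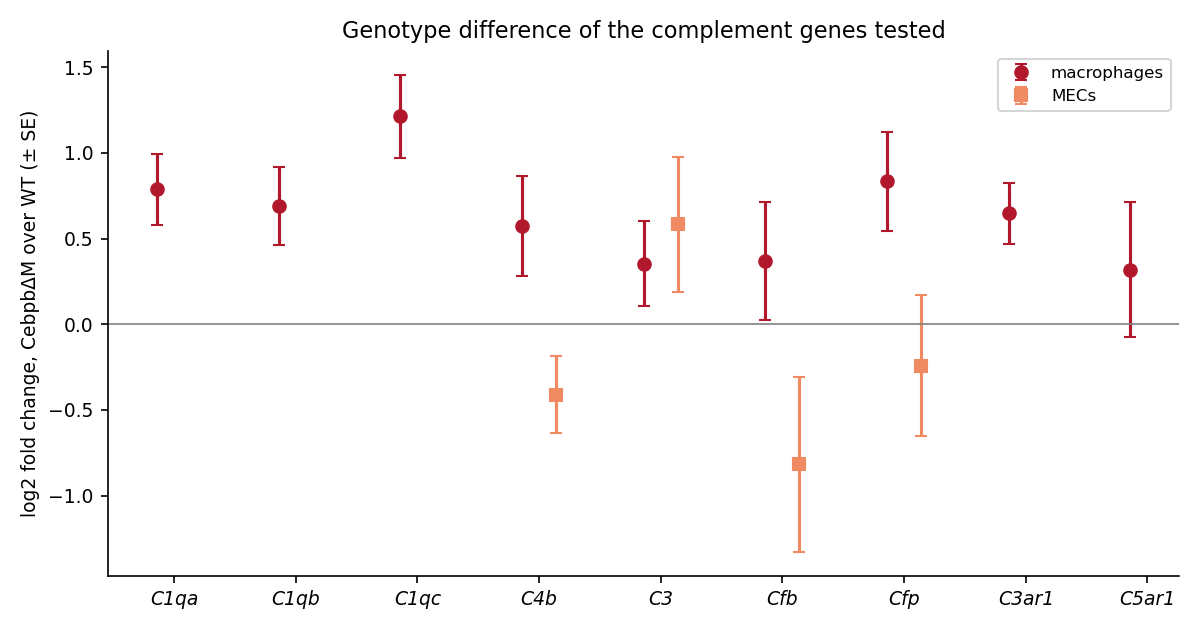
Log2 fold change of *Cebpb*ΔM over WT with its SE, by edgeR's QL fit, for the 9 complement genes tested in macrophages and the 4 tested in MECs. All 9 are above 0 in macrophages, from 0.32 to 1.21, and in MECs *C3* is above 0 and *C4b*, *Cfb* and *Cfp* are below it. *Cfb* passed the filter in MECs only through the WT libraries.

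Whether the genotypes differed by unequal amounts in the 2 cell types was examined as an interaction over all 10 libraries for the 4 genes with a fit in both. It was 1.12 for *Cfp* (SE 0.44), 1.03 for *C4b* (SE 0.43), 1.23 for *Cfb* (SE 0.55) and −0.17 for *C3* (SE 0.56) on the log2 scale, where a positive value means a higher fold change in macrophages. The QL adjusted *P* was 0.945 or more for all 4, and 0 of 18323 genes (0%) passed. The unadjusted *P* was under 0.05 for 3 of the 4, *Cfp* (0.0278), *C4b* (0.0338) and *Cfb* (0.0466), and for 5.19% of all genes. *Cfb* passed the filter in MECs only through WT, so nothing is drawn from its value here. The likelihood ratio test called 53 of all genes.

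Between the cell types, the C1q chains, *C3ar1* and *C5ar1* were at most 1.54 CPM in any MEC library and at least 143 CPM in any macrophage library. They passed the filter only through the macrophage libraries, where they are high, so no test is given for them. Of the 4 genes that passed it in both cell types, the QL test called 3 as higher in WT macrophages than in WT MECs, as it did 14.8% of all genes tested, and 3 of 4 in *Cebpb*ΔM, where it called 18.9%. In *Cebpb*ΔM 1 of these 3 was *Cfb*, which had only 0.54 and 0.72 CPM in the *Cebpb*ΔM MEC libraries. Among the *Cebpb*ΔM libraries it was over 1 CPM only in macrophages, so nothing is drawn from that call. Neither the labels nor the paper's methods say whether the cell types were sequenced together, so cell type and experiment cannot be told apart. The log2 difference in WT was 7.95 for *Cfp* (SE 0.41, QL adjusted *P* = 6.47e-07), 1.51 for *C4b* (adjusted *P* = 0.00648) and 2.11 for *Cfb* (adjusted *P* = 0.00391). *C3* was the exception, with log2 differences of 1.02 in WT (SE 0.43, adjusted *P* = 0.107) and 0.84 in *Cebpb*ΔM (SE 0.38, adjusted *P* = 0.114). Without MEC WT 1 the value for *C3* in WT was 1.88 (adjusted *P* = 0.0178). *C4b* lost its call in WT without MEC WT 3 (adjusted *P* = 0.0722) or without macrophage WT 5 (adjusted *P* = 0.0506).

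The other genes of complement came from a list of 57 genes that includes the 9. Of the other 48, 36 were tested in macrophages, 21 with a higher and 15 with a lower fold change in *Cebpb*ΔM, with a median of 0.15. Of these, 4 were higher without overlap and 0 lower, where 9.67% and 9.08% of all genes tested were. The QL test called 0 of the 36 and 0% of all genes. An unadjusted *P* under 0.05 was found for 3 of the 36 and for 8.63% of all genes. In MECs 29 were tested, 11 higher and 18 lower, with a median of −0.09. Without overlap 3 were higher and 7 lower, where 15.4% and 13.3% of all genes were. The QL test called 0 there and 0.051% of all genes. An unadjusted *P* under 0.05 was found for 2 of the 29 and for 5.42% of all genes.

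The most abundant of these others per kilobase in WT macrophages were *Calr*, which encodes a chaperone that also binds C1q on cell surfaces, *Fcna*, which encodes ficolin A of the lectin pathway, and *Serping1*, which encodes the C1 inhibitor. In WT MECs they were *Clu*, which encodes clusterin, an inhibitor of the terminal pathway, then *Calr* and *Serping1*. *Fcna* had 592, 393, 763 and 807 CPM in *Cebpb*ΔM 4 to 7, and 244 and 369.7 CPM in WT 4 and 5 of the macrophages. Its genotypes did not overlap, and the log2 fold change was 1.06 (SE 0.32, QL adjusted *P* = 0.495). The log2 fold changes of *Calr*, *Serping1* and *Clu* were −0.03, 0.04 and −0.06 in macrophages and −0.08, −0.05 and −0.15 in MECs, all smaller than their SE, and the signs of *Calr*, *Serping1* and *Clu* in macrophages turned with the setting.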

How the data were processed

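RNA sequencing counts of 10 libraries were analysed, grouped by the labels. The authors trimmed reads with Trimmomatic, mapped them with HISAT2 to GRCm38 and counted read pairs by strand on Ensembl release 100 with featureCounts (version 1.6.2, minimum mapping quality 10). The deposited files hold raw counts per gene, not normalized, and every sample column was used. Symbols came from GENCODE for 55141 of 55487 genes.

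Genes of at least 300 nt with over 1 CPM in at least 2 libraries of a fit were kept. Each experiment was fitted in edgeR (version 4.0.16, R version 4.3.3) with TMM normalization and its QL test, and all 10 libraries were fitted together for the interaction and the cell types. The paper's methods name the likelihood ratio test, run here as an alternative. *P*-values were Benjamini–Hochberg adjusted over all genes tested, with a threshold of 0.05. Standard errors are the log2 fold change divided by the root of the test statistic. Log2 CPM used a prior count of 2. A count of 0 was read as at most 3 counts, which is 0.111 to 0.177 CPM over these depths. The fits were tested on simulated data.

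The members, the lists of complement and marker genes and the rule for naming genes were chosen with earlier results of these data known. The rule names the 9 members, the 3 other complement genes highest per length in the WT libraries of each cell type, any other complement gene called in a genotype comparison (0 were), the 5 genes most like the C1q chains, and *Cebpb*. Genes outside the rule (*Adgre1*, *Csf1r*, *Cd14*, *Lyz2*, *Cd209a*, *Siglech*, *Gm20547* and *C4a*) are named for the marker lists or the counting. Alternatives were DESeq2 (version 1.42.0), the likelihood ratio test, RLE normalization, other filters, a replicate block, one fit of all libraries, replicates 4 and 5 alone, scaling to macrophage markers, an epithelial covariate, a threshold of 0.01 and each library left out. Plots were drawn with matplotlib (version 3.10.9).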

Additional observations from a re-analysis of the deposited data

Results flagged for a closer look

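*Cfp* was higher in every *Cebpb*ΔM macrophage library than in either WT library and lower in both *Cebpb*ΔM MEC libraries than in either WT library. The difference between the cell types was 1.12 on the log2 scale, and the interaction test did not pass (QL adjusted *P* = 0.945). The MEC values rest on 44 to 61 counts per library. The nearest MEC libraries of the genotypes were almost equal, at 2.011 CPM in *Cebpb*ΔM and 2.014 CPM in WT.

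*Calr* had 1 library far from the others among the 4 *Cebpb*ΔM macrophage libraries, with a gap to its nearest neighbour of 0.856 of the group's range, past the 95% critical value of Dixon's test. Chance flags some groups at this level, and 13 genes were looked at.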

How the results depend on the processing

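In macrophages the QL test called 0 genes, and the count was 138 with the likelihood ratio test, 201 with DESeq2 and 12 with the replicate block. Of the 9 complement genes these called 1, 2 and 0, and leaving out any library called 0 (lowest and highest 0). In MECs the 8 calls became 179 with the likelihood ratio test, 38 with no filter, 161 with DESeq2, 205 with the replicate block, 0 with all 10 libraries in one fit, 0 at a threshold of 0.01, and 2 to 337 with a library left out. The members called were 0 to 1 with a library left out. For the difference between cell types, the 0 calls became 53 with the likelihood ratio test, 1 with the replicate block and 0 to 1 with a library left out. Between cell types, 4664 calls in WT became 2456 to 4846 with a library left out, and 6174 calls in *Cebpb*ΔM became 3496 to 6556. Of the 4 complement genes tested in both cell types, 2 to 4 were called in WT with a library left out.

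Scaling to macrophage markers turned *C3* (−0.22), *Cfb* (−0.19), *C5ar1* (−0.23) and *Serping1* (−0.59) in macrophages. With replicates 4 and 5 alone, *C5ar1* was −0.072, *Calr* 0.045, *Serping1* −0.36 and *Clu* 0.19. With the replicate block, *Calr* was 0.026, *Serping1* −0.39 and *Clu* 0.14, and with the epithelial covariate *Serping1* was −0.070. With a library left out, the lowest and highest values in macrophages were −0.21 and 1.17 for *C5ar1*, −0.10 and 0.031 for *Calr*, −0.12 and 0.21 for *Serping1* and −0.30 and 0.042 for *Clu*. In MECs they were −0.25 and 0.14 for *Calr* and −0.24 and 0.19 for *Serping1*, and for the difference of *C3* −1.04 and 0.36. The cause was not tested.

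The replicate numbers are shared by 2 libraries of each genotype per cell type, and nothing in the labels says that they mark a litter or batch. Same-numbered libraries deviated from their group means with a Pearson's r of 0.126 and −0.0859 in macrophages and 0.105 in MECs, across genes. With 2 WT libraries per cell type, the WT deviations mirror each other. Pairs with unlike numbers therefore had the same r with the sign turned, −0.126 and 0.0859 in macrophages and −0.105 in MECs. No conclusion on whether the numbers mark pairs is drawn from these values. The block moved no call of the 9 complement genes. Low counts limit what can be read for the receptors and C1q chains in MECs, at 0 to 40 counts per library.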
